A study of Rattus norvegicus with 93 samples.

Results

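A set of 9 contractile genes of the smooth muscle type was followed in the bone marrow of rats infused with topotecan, oxaliplatin or both. They are Acta2, Actg2, Cald1, Myl9, Mylk, Synpo2, Tagln, Tpm1 and Tpm2, which is 9 of the 7810 genes that the array annotation names by a single symbol. Of the 12532 probe sets tested, 15 carry one of these symbols, and each gene was read from the probe set with the highest mean over all 93 arrays. Values are log2 signals, so a difference of 1 log2 unit is a 2-fold difference in signal. Because each probe set binds its target with its own strength, levels were compared between groups for 1 gene and not between genes.

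Contraction of smooth muscle runs on actin filaments pulled by myosin. Calcium and calmodulin switch on myosin light chain kinase (Mylk), the kinase phosphorylates the regulatory light chain (Myl9), and myosin then pulls on filaments that carry tropomyosin (Tpm1, Tpm2) and caldesmon (Cald1). In marrow this gene set is known from the muscle coat of arterioles, from pericytes and from stromal cells, and several of the proteins also serve the cytoskeleton of platelets.

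All rats were 8-week-old male Sprague-Dawley animals with a cannula in the femoral vein, and the marrow was flushed from the left femur. Every rat, controls included, received a pair of intravenous infusions of 30 min each with a pause of 30 min between them. Groups are named by first and second infusion. Topotecan, a topoisomerase I inhibitor, was given at 4.7 mg/kg in 0.9% NaCl, and oxaliplatin, a platinum compound that binds DNA, at 15 mg/kg in 5% dextrose in water (D5W). The groups that began with topotecan or its vehicle were topotecan/D5W, topotecan/oxaliplatin (a combination), NaCl/oxaliplatin and the vehicle group NaCl/D5W. In the reverse order they were D5W/topotecan, oxaliplatin/topotecan (a combination), oxaliplatin/NaCl and the vehicle group D5W/NaCl. Marrow was taken 1, 6 and 24 h after the completion of dosing, from 4 rats per group and time, with only 3 in the 24 h groups D5W/NaCl and topotecan/D5W and in the 6 h group oxaliplatin/NaCl, from which the authors had removed 1 array as an outlier. Each rat gave 1 array.

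Array medians lay between 8.79 and 9.30 and the lowest correlation between any pair of arrays was 0.833. In the vehicle rats at 24 h the neutrophil and erythroid marker lists had mean signals of 13.69 to 13.90 and 12.95 to 13.30, which fits the label of marrow. Skeletal muscle genes stood apart on single arrays: the mean of 23 measured muscle genes was 9.62 in animal 52 (topotecan/oxaliplatin, 6 h) and 8.65 and 8.63 in animals 41 and 42 (oxaliplatin/NaCl, 24 h), against 6.07 on the median array. Between 1 and 2 log2 units above that median lay animals 44 (oxaliplatin/NaCl, 1 h), 25 (topotecan/D5W, 1 h) and 53 (topotecan/oxaliplatin, 24 h). The sample codes of topotecan/oxaliplatin, oxaliplatin/topotecan, NaCl/oxaliplatin and D5W/topotecan at 1 and 6 h do not share a code column with the vehicle rats, and neither do those of oxaliplatin/topotecan and D5W/topotecan at 24 h with their vehicle D5W/NaCl. No column is shared at any time between topotecan/D5W and NaCl/oxaliplatin, D5W/topotecan and oxaliplatin/NaCl, or oxaliplatin/topotecan and oxaliplatin/NaCl. The same holds for topotecan/oxaliplatin and topotecan/D5W at 1 and 6 h. If these columns mark a handling step, it cannot be told apart from treatment there. The leading part of the code differs between all arrays of 24 h and all arrays of 1 and 6 h, and the columns differ between 1 and 6 h. If these parts of the code mark a handling step, it cannot be told apart from time.

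Promoter sequence was examined because genes of this class are textbook targets of serum response factor, which binds the CArG box. RefSeq windows on the GRCr8 build, running from 250 bases before to 50 bases after the transcript start, were at hand for 7 of the 9 genes (8 windows, as Cald1 has a pair). Myl9 and Tagln had no window in the table. The exact box, searched on both strands, was in 0 of these 8 windows and in 1.64% of all 33469 windows. A looser form, with 1 of the 6 middle letters allowed to be G or C and added after the exact box was not found, was in 1 of the 8 and in 8.1% of all. That window belongs to Acta2, smooth muscle alpha-actin, and lies at chr1:241172454-241172753 on the minus strand. It is printed because it alone among the 8 holds the looser box, the capitals marking both copies, which begin at positions -134 and -84 from the start:
Acta2 promoter: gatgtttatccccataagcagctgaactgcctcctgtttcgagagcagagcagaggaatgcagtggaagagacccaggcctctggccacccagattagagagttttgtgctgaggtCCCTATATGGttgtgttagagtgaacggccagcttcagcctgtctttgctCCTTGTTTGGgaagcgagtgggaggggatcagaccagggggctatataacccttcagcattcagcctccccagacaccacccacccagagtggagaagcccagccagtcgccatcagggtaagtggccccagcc
The TATA box, spelled TATAAA, was in 1 of the 8 windows (the Cald1 window at chr4:64343465-64343764) and in 14.2% of all. The GC box, spelled GGGCGG, was in 5 of the 8 (Actg2, Synpo2, Tpm1, Tpm2 and the other Cald1 window) and in 33.1% of all. These matches describe letters in a window and say nothing of binding.

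The first question was whether either drug, or both in sequence, moved these genes against the vehicle rats of the same infusion order and time. By 24 h most of the 9 were higher in all 6 treatments, and 0 genes were called lower in any of the 18 comparisons, by limma with Benjamini-Hochberg adjustment or at an unadjusted p under 0.05. A gene was called when its limma adjusted p, over all 12532 probe sets, was under 0.01. At 24 h the genes called higher numbered 7 of 9 for topotecan/D5W (16.1% of all probe sets higher and 17.3% lower), 8 for topotecan/oxaliplatin (25.9% and 35.2%), 8 for NaCl/oxaliplatin (24.9% and 30.2%), 8 for D5W/topotecan (18.1% and 18.3%), 8 for oxaliplatin/topotecan (21.8% and 33.3%) and 9 for oxaliplatin/NaCl (19.6% and 26.4%). The median difference of the 9 genes ran from 0.62 (topotecan/D5W) to 1.27 (topotecan/oxaliplatin), while the median of all probe sets lay between -0.11 and 0.03. In whole marrow a higher signal can mean more cells that carry the RNA, fewer of the other cells or more RNA per cell, and these cannot be told apart.

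**Figure D1:**
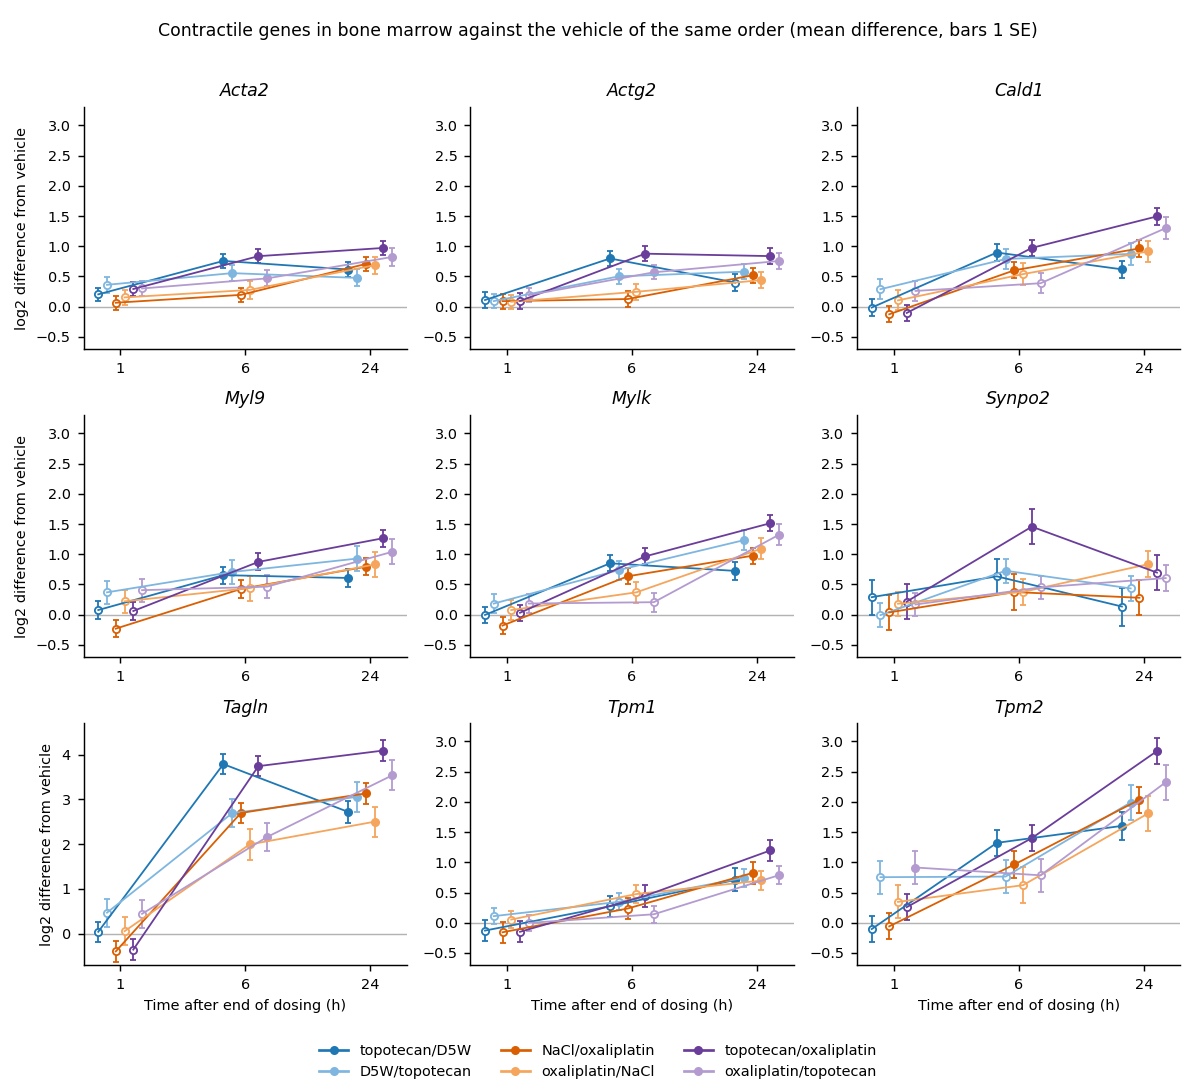
Mean log2 difference from the vehicle of the same infusion order (y axis) for each gene at 1, 6 and 24 h after the end of dosing (x axis, times drawn at equal steps), with 1 line per treatment, bars of 1 SE and filled points where the adjusted p was under 0.01. The Tagln panel has a taller y axis than the others: Tagln reached 3.79 at 6 h after topotecan/D5W and 4.09 at 24 h after topotecan/oxaliplatin, while 1 point of the 54 at 1 h is filled (Tpm2 after oxaliplatin/topotecan).

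Tagln (transgelin, SM22), which binds and bundles actin filaments, had the largest difference from vehicle among the 9 in all 6 treatments at 6 and 24 h. The study had already singled it out on these samples, so its size is not independent evidence. At 24 h the 4 NaCl/D5W rats measured 7.32, 7.47, 7.62 and 7.70, and the 4 topotecan/oxaliplatin rats 10.96, 11.64, 11.93 and 11.96. The D5W/NaCl rats measured 7.71, 7.75 and 8.28, and the oxaliplatin/topotecan rats 10.86, 11.60, 11.62 and 11.72. Every rat given both drugs was over 2 log2 units above every vehicle rat. The share of all probe sets without overlap between groups was not counted, here or for the genes that follow. The differences were 4.09 (SE 0.23), a 17.1-fold signal at adjusted p = 5.77e-18, and 3.54 (SE 0.34), an 11.6-fold signal at adjusted p = 2.14e-11.

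Single agents at 24 h also left no overlap with vehicle for Tagln. Topotecan/D5W rats measured 9.66, 10.30 and 10.79, and D5W/topotecan rats 10.02, 10.89, 11.32 and 11.63. Oxaliplatin/NaCl rats measured 10.06, 10.30, 10.61 and 10.68, and NaCl/oxaliplatin rats 10.30, 10.65, 10.81 and 10.90. The lowest of these 15 rats was more than 1 log2 unit above the highest vehicle rat. The differences were 3.14 (SE 0.23) after NaCl/oxaliplatin, 3.06 (SE 0.34) after D5W/topotecan, 2.72 (SE 0.25) after topotecan/D5W and 2.50 (SE 0.34) after oxaliplatin/NaCl, all 4 called.

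At 6 h the Tagln level was already high after topotecan. The topotecan/D5W rats measured 10.60, 11.17, 11.25 and 11.58 and the NaCl/D5W rats 7.11, 7.17, 7.49 and 7.67, a difference of 3.79 (SE 0.23, 13.8-fold, adjusted p = 6.78e-16). After D5W/topotecan it was 2.69 (SE 0.31), after NaCl/oxaliplatin 2.70 (SE 0.23), after oxaliplatin/NaCl 1.99 (SE 0.34), after topotecan/oxaliplatin 3.74 (SE 0.23) and after oxaliplatin/topotecan 2.16 (SE 0.31), all called. The D5W/NaCl vehicle rats of 6 h were spread more widely than those of 24 h, at 7.77, 7.85, 8.42 and 9.02, and none of them reached the lowest treated rat of their order, at 9.85. The D5W/NaCl mean of 8.27 was also above the NaCl/D5W mean of 7.36. Topotecan/D5W and D5W/topotecan lay closer together, with means of 11.15 and 10.96. At 1 h Tagln was called in 0 of 6 treatments.

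**Figure D2:**
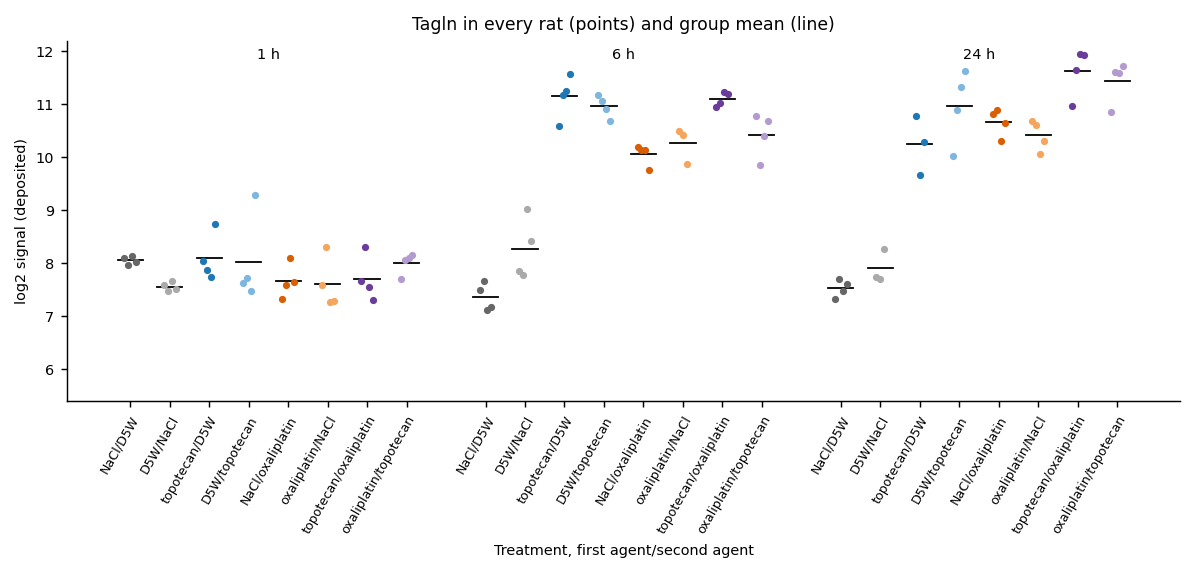
Tagln signal (y axis, log2) of each of the 93 rats by group and time, 1 point per rat. The vehicle rats lie between 7.11 and 9.02 at all 3 times, and all treated rats at 24 h lie at 9.66 or above.

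The tropomyosins lie along the actin filament and set how myosin reaches it. Tpm2 came next after Tagln in size at 24 h. The NaCl/D5W rats measured 8.75, 8.98, 9.09 and 9.27 and the topotecan/oxaliplatin rats 11.70, 11.76, 11.91 and 12.08, a difference of 2.84 (SE 0.22, 7.17-fold, adjusted p = 2.63e-14). The oxaliplatin/topotecan rats measured 11.07, 11.58, 11.71 and 11.82 against 8.73, 9.11 and 9.81 in D5W/NaCl, a difference of 2.32 (SE 0.29, adjusted p = 1.4e-08). No treated rat overlapped with its vehicle rats in either comparison. After single agents the Tpm2 difference was 1.60 (SE 0.23, topotecan/D5W), 1.99 (SE 0.29, D5W/topotecan), 1.81 (SE 0.29, oxaliplatin/NaCl) and 2.04 (SE 0.22, NaCl/oxaliplatin), all called.

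Tpm1 was called at 24 h in all 6 treatments, with differences of 0.70 (oxaliplatin/NaCl) to 1.20 (topotecan/oxaliplatin, SE 0.18), and at 1 and 6 h in 0 of 6. At 24 h the NaCl/D5W rats measured 10.63, 10.91, 10.96 and 11.00 and the topotecan/oxaliplatin rats 11.72, 11.98, 12.18 and 12.39, with no overlap. Tpm1 and Tpm2 have further probe sets, and these did not all give the same answer. For Tpm1, the probe set with a mean signal of 10.18 kept 5 of the 6 calls of 24 h with 0.55 to 1.12, and those with means of 7.59, 9.25 and 8.44 kept 3, 1 and 1. Their differences at 24 h ran from -0.04 (NaCl/oxaliplatin, the probe set of mean 9.25) to 2.53 (oxaliplatin/NaCl, the probe set of mean 7.59). The single further Tpm2 probe set, with a mean of 5.19 against 10.02 for the one used, gave 0.16 to 0.69 at 24 h and kept 1 of the 10 Tpm2 calls, that of oxaliplatin/NaCl at 24 h. At 6 h, where the Tpm1 probe set used gave 0 calls of 6, the one of mean 10.18 was called for D5W/topotecan (0.58), oxaliplatin/NaCl (0.62) and topotecan/oxaliplatin (0.71), and the one of mean 9.25 for D5W/topotecan (0.61) and oxaliplatin/topotecan (0.77). Those of mean 8.44 and 7.59 were also called at 6 h for oxaliplatin/topotecan (0.97 and 1.52), and the first of them for topotecan/oxaliplatin (1.19). Tropomyosin genes are spliced into many isoforms, and which isoforms each probe set reads was not tested.

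For Myl9, the regulatory light chain, at 24 h the NaCl/D5W rats measured 11.18, 11.21, 11.25 and 11.28 and the topotecan/oxaliplatin rats 12.24, 12.41, 12.64 and 12.71, a difference of 1.27 (SE 0.14, adjusted p = 4.76e-10). For Mylk, its kinase, the same groups measured 10.10, 10.12, 10.28 and 10.32 and then 11.37, 11.53, 11.99 and 12.00, a difference of 1.51 (SE 0.13, adjusted p = 1.46e-12). Neither gene overlapped between the groups. After oxaliplatin/topotecan the differences were 1.04 (SE 0.21) for Myl9 and 1.32 (SE 0.17) for Mylk. After single agents they ran from 0.61 (topotecan/D5W) to 0.93 (D5W/topotecan) for Myl9 and from 0.72 to 1.23 in the same treatments for Mylk, all called. One D5W/topotecan rat of 24 h, animal 89, was far below its group: its Myl9 of 11.25 lay inside the D5W/NaCl range of 11.04 to 11.67, beside 12.39, 12.48 and 12.64 in the other 3 rats, and it was the lowest of its group for all 9 genes, with Mylk at 10.49 and Tagln at 10.02.

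Within groups, over the 93 arrays with each group mean removed, the pair Myl9 and Mylk had the highest Pearson correlation among the 9 genes (0.79), followed by Cald1 and Mylk (0.68). Pairs with Synpo2 gave 0.05 to 0.22. These are descriptions of arrays that share a normalization.

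Cald1 (caldesmon), an inhibitor of actin-activated myosin, measured 10.64, 10.70, 10.80 and 10.84 in NaCl/D5W at 24 h and 11.97, 12.06, 12.40 and 12.53 in topotecan/oxaliplatin, a difference of 1.49 (SE 0.13, adjusted p = 2.2e-12). After oxaliplatin/topotecan it was 1.30 (SE 0.18) and after the single agents 0.62 to 0.96, all called. Cald1 rose at 6 h after topotecan/D5W (0.90), D5W/topotecan (0.79), NaCl/oxaliplatin (0.60) and topotecan/oxaliplatin (0.97). Its other probe set kept 9 of these 10 calls and missed topotecan/D5W at 24 h (0.52, adjusted p = 0.0206), and it was called in a further pair at 6 h, oxaliplatin/NaCl (0.70) and oxaliplatin/topotecan (0.78, against 0.39 for the one used).

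The differences of both actins at 24 h stayed under 1 log2 unit. Acta2 measured 7.51 to 7.84 in NaCl/D5W at 24 h and 8.20 to 8.86 in topotecan/oxaliplatin, a difference of 0.97 (SE 0.11, adjusted p = 1.29e-09), and after oxaliplatin/topotecan the difference was 0.82 (SE 0.14). After single agents at 24 h the Acta2 difference was 0.48 to 0.71, called in all 4. Actg2, the enteric gamma-actin, measured 6.11 to 6.30 in NaCl/D5W and 6.74 to 7.44 in topotecan/oxaliplatin, a difference of 0.84 (SE 0.13, adjusted p = 2.68e-07). It was called at 24 h in all treatments but topotecan/D5W (0.40, adjusted p = 0.0155). The Actg2 vehicle level was far below the array medians (8.79 to 9.30) and near the skeletal muscle mean of the median array (6.07). Whether it lay at the floor of the arrays was not tested. Actin proteins are nearly identical in their coding parts, and whether these probe sets also take up RNA of other actins was not tested. Actg1, a cytoplasmic actin that all cells make, differed by 0.11 to 0.19 in the same 6 comparisons, with 4 of them called.

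**Figure D3:**
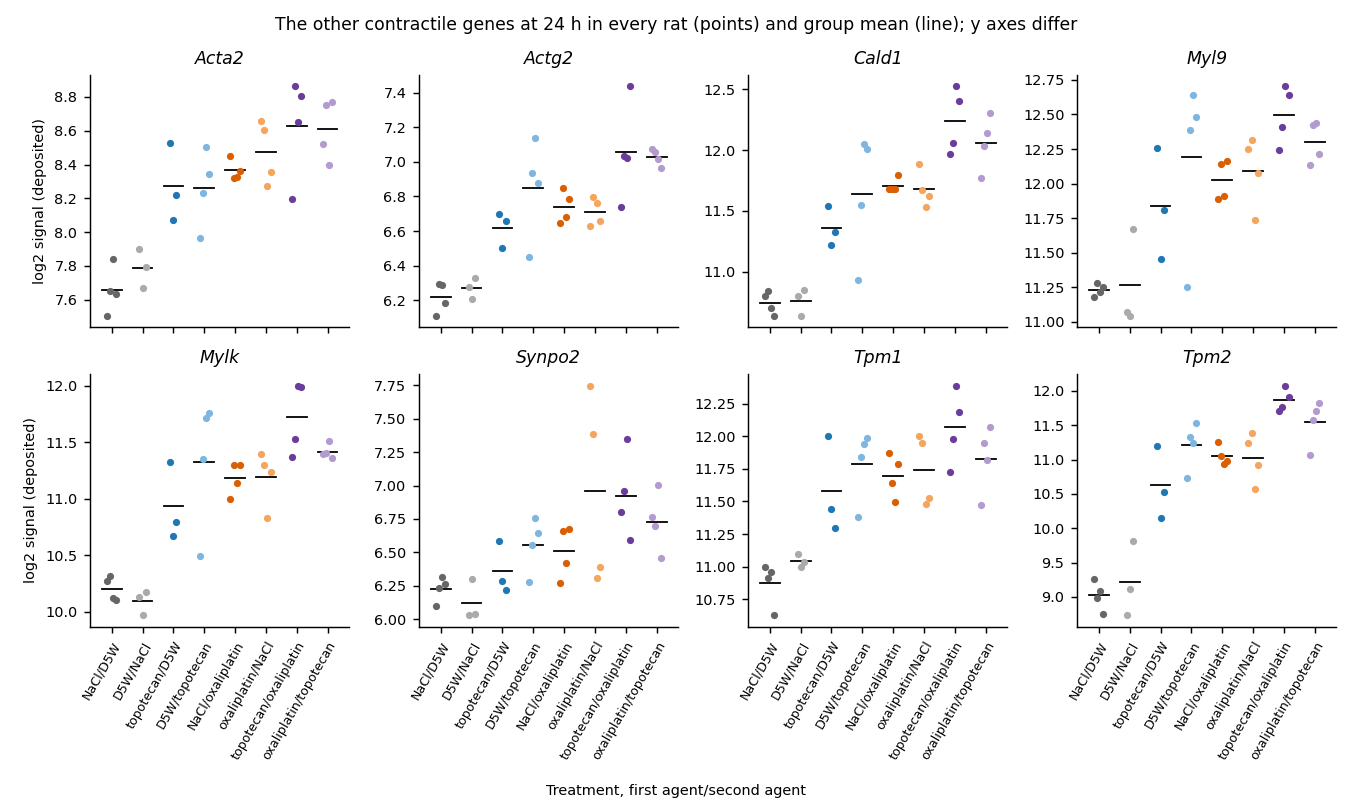
Signal (y axis, log2) of each rat at 24 h for the 8 genes other than Tagln, 1 panel per gene and 1 point per rat, by treatment group (x axis). In topotecan/oxaliplatin every rat lies above every NaCl/D5W rat for all 8 genes. The share of all probe sets that separate these rats in the same way was not counted, and 25.9% were called higher in this comparison. The low point of D5W/topotecan in the Myl9, Mylk and Cald1 panels is animal 89.

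Synpo2, an actin-binding protein also of the Z-discs of striated muscle, was called at 24 h in 1 of 6 treatments, oxaliplatin/NaCl (0.84, SE 0.21, adjusted p = 0.00104). The 4 rats measured 6.31, 6.39, 7.38 and 7.75, of which the upper pair are animals 41 and 42, both high in skeletal muscle genes, and the D5W/NaCl rats measured 6.03, 6.04 and 6.30. Without these arrays the difference was 0.23 (adjusted p = 0.304). The Synpo2 mean over all arrays was 6.52, about as low as that of Actg2 (6.51). Whether its vehicle level lay at the floor of the arrays was not tested. In both combinations Synpo2 was not called at 24 h, but all 9 genes had an unadjusted limma p under 0.05. It measured 6.6 to 7.3 after topotecan/oxaliplatin against 6.1 to 6.3 in NaCl/D5W. After oxaliplatin/topotecan it measured 6.5 to 7.0 against 6.0 to 6.3 in D5W/NaCl. After topotecan/D5W, D5W/topotecan and NaCl/oxaliplatin its range overlapped with vehicle. Over the 93 arrays Synpo2 correlated with the skeletal muscle mean within groups at 0.81, which was 0.38 without the 3 highest arrays and 0.17 without 6, while the other 8 genes gave -0.11 to 0.11 over all arrays and -0.13 to 0.19 without the 6, a range that then holds Synpo2.

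The same arrays weigh on the count for oxaliplatin/NaCl at 24 h. In that comparison 21 of the 23 measured skeletal muscle genes were called higher, with a median difference of 1.29. Without animals 41 and 42, which leaves 2 treated rats, 4 of the 9 contractile genes were called (Cald1 0.81, Mylk 0.94, Tagln 2.27, Tpm2 1.53) and the other 5 were not, at 0.53 (Acta2), 0.44 (Actg2), 0.64 (Myl9), 0.23 (Synpo2) and 0.46 (Tpm1). With the muscle mean as a covariate 5 were called. In topotecan/D5W at 24 h, 4 in place of 7 were called without animal 29, which had the highest Myl9 (12.26), Mylk (11.32) and Tpm2 (11.20) of its 3 rats.

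**Figure D4:**
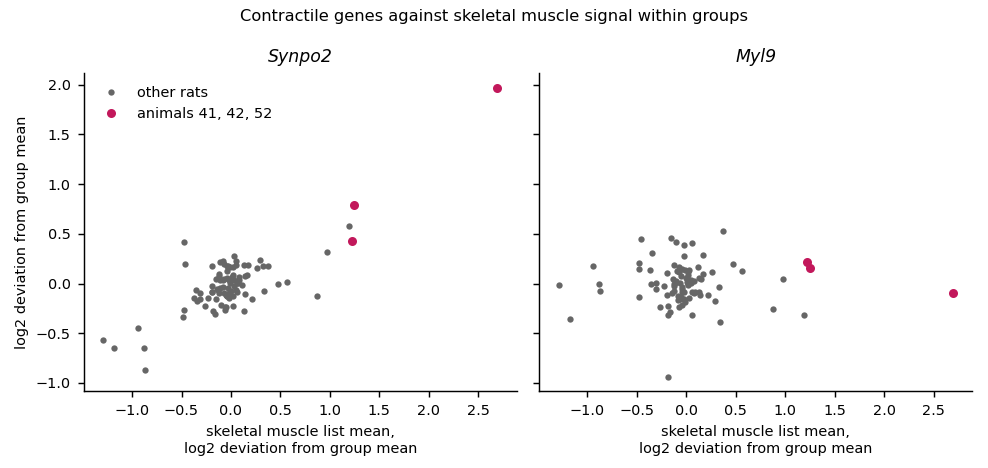
Deviation of each array from its group mean, in log2 units, for Synpo2 and for Myl9 (y axes) against the deviation of the mean of 23 skeletal muscle genes (x axis), 1 point per array, with animals 41, 42 and 52 as larger red points. Synpo2 follows the muscle mean (r = 0.81 over 93 arrays), with animal 52 at the far end, and Myl9 does not (r = 0.01).

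At 6 h most of the 9 genes were called after topotecan alone and fewer after oxaliplatin alone, where the share of all probe sets called was lower too. The genes called higher numbered 7 of 9 for topotecan/D5W (15.1% of all probe sets higher and 25.6% lower), 8 for topotecan/oxaliplatin (17% and 27.6%), 4 for NaCl/oxaliplatin (5.54% and 9.69%), 7 for D5W/topotecan (14.1% and 20.4%), 3 for oxaliplatin/topotecan (14.2% and 27.5%) and 1 for oxaliplatin/NaCl (3.78% and 7.25%). After topotecan/D5W the called genes besides Tagln were Tpm2 at 1.32, Cald1 at 0.90, Mylk at 0.85, Actg2 at 0.80, Acta2 at 0.76 and Myl9 at 0.66. After NaCl/oxaliplatin they were Tpm2 at 0.96, Mylk at 0.64 and Cald1 at 0.60, and after oxaliplatin/topotecan Actg2 at 0.57 and Acta2 at 0.47. Topotecan/oxaliplatin differed from vehicle in every gene but Tpm1 (0.45, adjusted p = 0.0311), for which 2 of the 4 other probe sets were called.

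Synpo2 at 6 h stood at 1.46 (SE 0.29) after topotecan/oxaliplatin. Its 4 rats measured 6.66, 6.88, 7.08 and 9.50, the last being animal 52, against 5.99 to 6.25 in NaCl/D5W. Without the 3 arrays highest in muscle genes the difference was 0.80 and still called. After D5W/topotecan Synpo2 rose by 0.73 (SE 0.20), with rats at 6.71, 6.95, 6.98 and 7.12 against 6.12 to 6.28 and none of these arrays among them.

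At 1 h 1 call was made in 54. Tpm2 after oxaliplatin/topotecan measured 9.29, 9.38, 9.96 and 10.06 against 8.46, 8.60, 8.86 and 9.11 in D5W/NaCl, a difference of 0.91 (SE 0.27, adjusted p = 0.00567, 7.21% of all probe sets higher and 27.6% lower), and it was lost when any of animals 14, 19, 67 or 68 was left out. The counts of the other 5 treatments were 0 of 9 by limma, beside 9.18% of probe sets higher and 26% lower for topotecan/D5W, 9.77% and 32.9% for topotecan/oxaliplatin, 0.136% and 0.0239% for NaCl/oxaliplatin, 7.67% and 19.5% for D5W/topotecan, and 0.575% and 0.654% for oxaliplatin/NaCl. At an unadjusted p under 0.05 these 5 counts were 0, 1, 0, 2 and 0. 

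The growth of an effect between times was tested with a contrast of its own. From 1 to 6 h the Tagln effect grew by 3.75 (SE 0.32) for topotecan/D5W, 4.10 (SE 0.32) for topotecan/oxaliplatin, 3.09 (SE 0.32) for NaCl/oxaliplatin, 2.22 (SE 0.44) for D5W/topotecan and 1.72 (SE 0.44) for oxaliplatin/topotecan. For oxaliplatin/NaCl the estimate was 1.94 and narrowly missed the threshold (adjusted p = 0.0106). Growth was called for 6, 7, 3, 1, 1 and 0 of the 9 genes in these 6 treatments, beside 13.7%, 17.4%, 2.11%, 16.7%, 15.4% and 0.391% of all probe sets. Between 6 and 24 h the genes with called growth were Tpm2 after NaCl/oxaliplatin (1.07, SE 0.31), Tpm2 after topotecan/oxaliplatin (1.44, SE 0.31), and Cald1 (0.91, SE 0.24), Mylk (1.12, SE 0.23) and Tpm2 (1.54, SE 0.40) after oxaliplatin/topotecan, beside 8.19%, 13.3% and 10.7% of all probe sets. The other 3 treatments had 0 by limma, beside 10.2% (topotecan/D5W), 7.07% (D5W/topotecan) and 1.82% (oxaliplatin/NaCl) of all probe sets called higher. At an unadjusted p under 0.05 these 3 had 2, 2 and 3 genes, and for topotecan/D5W Tagln was among them, at -1.07. In vehicle marrow 0 of the 9 genes were called between 1 and 6 h or between 6 and 24 h, in either order, beside at most 0.463% of all probe sets in 1 direction. At an unadjusted p under 0.05 there were 2 in each order from 1 to 6 h and 0 from 6 to 24 h. The sample codes differ along with time in these comparisons.

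The second question was whether adding the other drug changed these genes beyond a single agent. At 24 h topotecan/oxaliplatin stood above topotecan/D5W in 6 of 9 genes (11.5% of all probe sets higher and 18% lower). They were Tagln (1.37, SE 0.25), Tpm2 (1.24, SE 0.23), Cald1 (0.88, SE 0.15), Mylk (0.79, SE 0.14), Myl9 (0.66, SE 0.15) and Actg2 (0.44, SE 0.14). It stood above NaCl/oxaliplatin in 4 of 9 (7.44% higher and 8.43% lower): Tagln (0.96, SE 0.23), Tpm2 (0.80, SE 0.22), Mylk (0.54, SE 0.13) and Cald1 (0.53, SE 0.13). This count of 4 ran from 0 to 6 when single rats were left out. It moved by more than 1.5 times without animal 59 or 60 of topotecan/oxaliplatin or animal 83 of NaCl/oxaliplatin.

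The reverse sequence gave 0 of 9 genes by limma against either single agent at 24 h. Against oxaliplatin/NaCl (1.02% of all probe sets higher and 4.91% lower) 3 genes had an unadjusted p under 0.05, and Tagln stood at 1.03 with an interval of 0.40 to 1.67 (adjusted p = 0.0238). Against D5W/topotecan (1.47% and 15.4%) 2 had an unadjusted p under 0.05, and Tagln stood at 0.48 with an interval of -0.15 to 1.12. Both intervals reach above 1 log2 unit, so the miss does not show that adding the other drug left Tagln where it was.

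**Figure D5:**
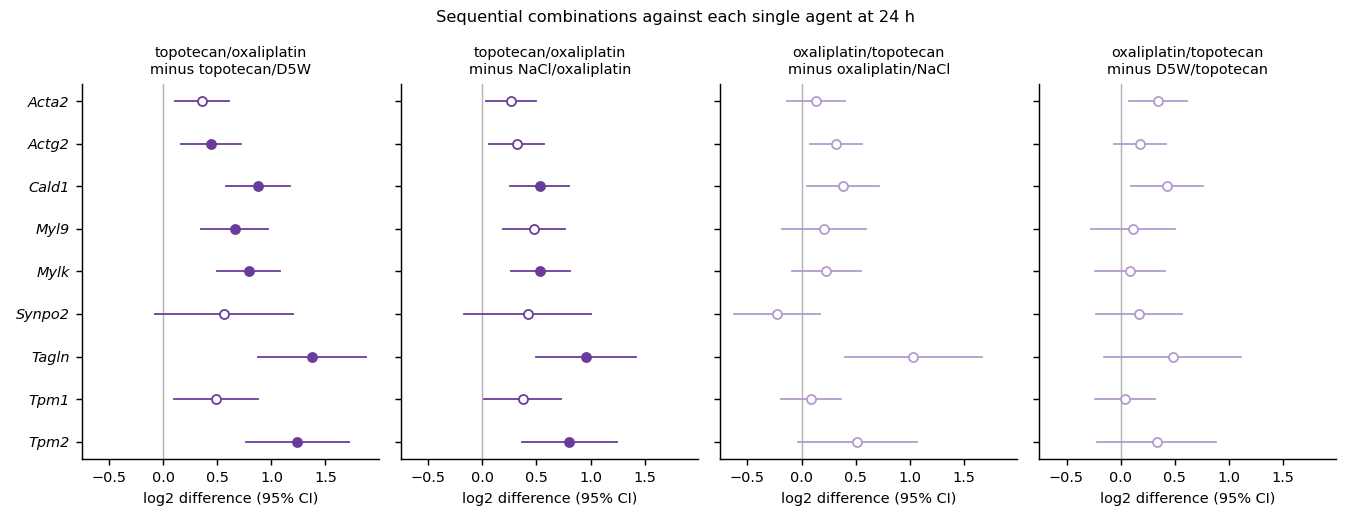
Log2 difference (x axis) of each sequential combination from each of its single agents at 24 h, 1 row per gene, with 95% confidence intervals and filled points where the adjusted p was under 0.01. For topotecan/oxaliplatin 6 and 4 of the 9 points are filled, and for oxaliplatin/topotecan none are filled, though 8 and 9 of the 9 lie above 0.

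At 6 h topotecan/oxaliplatin stood above NaCl/oxaliplatin in 4 genes (4.39% of all probe sets higher and 12.6% lower): Synpo2 (1.08, SE 0.29), Tagln (1.05, SE 0.23), Actg2 (0.75, SE 0.13) and Acta2 (0.64, SE 0.11). The Synpo2 value was 0.43 and no longer called (adjusted p = 0.033) without the arrays high in muscle genes. Against topotecan/D5W the count was 0 (0.16% and 1.16%, 1 gene at an unadjusted p under 0.05). Oxaliplatin/topotecan gave 0 against oxaliplatin/NaCl (2.26% and 11.1%, 2 genes at an unadjusted p under 0.05) and 0 against D5W/topotecan (0.303% and 3.79%, 2 genes, both below 0: Cald1 at -0.40 and Mylk at -0.53). At 1 h all 4 counts were 0 by limma. For topotecan/oxaliplatin 0% of all probe sets were higher and 0% lower against topotecan/D5W, and 9.84% and 29.2% against NaCl/oxaliplatin, with 0 and 1 of the 9 genes at an unadjusted p under 0.05. For oxaliplatin/topotecan the shares were 3.89% and 22.4% against oxaliplatin/NaCl and 0.0559% and 0.184% against D5W/topotecan, with 1 and 0 genes.

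Compared with the sum of the single-agent differences on the log2 scale, the combinations fell short in a few genes. A sum on this scale multiplies the folds, so a shortfall does not show that signal fell short of simple addition. Addition of signal was not tested, and the study proposes that the Tagln rise after both drugs might be additive. For topotecan/oxaliplatin the Tagln shortfall was -2.74 (SE 0.32) at 6 h and -1.76 (SE 0.34) at 24 h, the only gene of the 9 called at either time (1.01% and 6.27% of all probe sets lower). For oxaliplatin/topotecan at 6 h it was -2.52 (SE 0.46) for Tagln, -0.94 (SE 0.24) for Cald1 and -0.90 (SE 0.23) for Mylk (2.56% lower). At 24 h it was -2.02 (SE 0.46) for Tagln, -1.47 (SE 0.40) for Tpm2 and -1.01 (SE 0.23) for Mylk (6.3% lower). Of all probe sets, 1.48% (6 h) and 7.39% (24 h) were above the sum for topotecan/oxaliplatin. For oxaliplatin/topotecan these shares were 1.86% and 5.41%. Without the 3 arrays high in muscle genes the counts for oxaliplatin/topotecan were 1 at 6 h and 0 at 24 h. None of these arrays belongs to the 6 h groups of this contrast: Cald1 stayed at -0.94 and Mylk at -0.90 there, with adjusted p = 0.0113 and 0.0105. At 24 h the values were -1.79 for Tagln, -1.19 for Tpm2 and -0.85 for Mylk. At 1 h 0 of the 9 departed from the sum in either sequence by limma, also at an unadjusted p under 0.05, beside 0% of all probe sets in either direction for topotecan/oxaliplatin and 0.0479% higher and 0.128% lower for oxaliplatin/topotecan.

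Set directly against each other at 6 h, topotecan/D5W was above NaCl/oxaliplatin in Tagln (1.09, SE 0.23), Actg2 (0.67, SE 0.13) and Acta2 (0.56, SE 0.11), 3 of 9 beside 3.69% of all probe sets higher and 10.3% lower. D5W/topotecan and oxaliplatin/NaCl differed at 6 h in 0 of 9 by limma (1.58% and 3.14%, 2 genes at an unadjusted p under 0.05). At 24 h the drugs differed in 0 of 9 in both pairs (12% and 5.55% of all probe sets higher after topotecan, 5.91% and 2.67% lower), with 1 gene in each at an unadjusted p under 0.05, and at 1 h in 0 of 9 (10.1% and 4.6% higher, 22.7% and 14.4% lower), with 1 and 0. In these pairs the infusion order and the column of the sample code differ along with the drug.

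For order of infusion the differences from own-order vehicle were compared, and 0 of the 9 genes were called by limma at any time for topotecan, oxaliplatin or the combination. At 1 h the combination had 5.09% of all probe sets higher and 4.76% lower by order, topotecan 4.84% and 7.33% and oxaliplatin 0%, with 1, 1 and 0 of the 9 genes at an unadjusted p under 0.05. For the combination at 6 h all 9 estimates lay above 0, meaning a larger difference when topotecan came first. Of the 9, 5 had an unadjusted p under 0.05, and the share of all probe sets at that level was not counted. By the adjusted p 0 of the 9 were called, beside 0.00798% of all probe sets higher. The largest estimate was that of Tagln at 1.58, with an interval of 0.80 to 2.37 and limma adjusted p = 0.151. It was followed by Synpo2 at 1.00 (adjusted p = 0.348), for which animal 52 was in the group, and Mylk at 0.76 (adjusted p = 0.156). The Tagln estimate also holds a gap between the vehicle groups of 6 h, with means of 7.36 (NaCl/D5W) and 8.27 (D5W/NaCl). The treated means were 11.10 (topotecan/oxaliplatin) and 10.43 (oxaliplatin/topotecan). For topotecan and oxaliplatin at 6 h 1 and 0 genes had an unadjusted p under 0.05, with 0% of all probe sets called. At 24 h 0 of 12532 probe sets were called by order, with 1 (topotecan), 0 and 0 of the 9 genes at an unadjusted p under 0.05. Whichever drug came first also had a longer exposure by the time of sampling, and order and time since infusion cannot be told apart.

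Other genes of the contractile apparatus were read at 24 h against the shares of all probe sets called higher, which were 16.1% for topotecan/D5W, 25.9% for topotecan/oxaliplatin, 24.9% for NaCl/oxaliplatin, 18.1% for D5W/topotecan, 21.8% for oxaliplatin/topotecan and 19.6% for oxaliplatin/NaCl. Of 26 measured actomyosin partners, 8 rose for topotecan/D5W, 18 for topotecan/oxaliplatin, 18 for NaCl/oxaliplatin, 11 for D5W/topotecan, 15 for oxaliplatin/topotecan and 15 for oxaliplatin/NaCl. In the same order 1, 2, 1, 2, 1 and 1 fell, beside 17.3% to 35.2% of all probe sets lower. Their median difference for topotecan/oxaliplatin was 0.41, beside -0.10 over all probe sets. The largest rises of the 26 in topotecan/oxaliplatin were those of Palld (palladin, an actin crosslinker), at 2.55, and Synpo (synaptopodin, a relative of Synpo2), at 2.12. Pdlim7 rose by 1.11, Zyx (zyxin, of focal adhesions) by 0.87, Actn1 (alpha-actinin) by 0.82 and Vcl (vinculin) by 0.78. Non-muscle relatives of the 9 genes also rose there: Tagln2 by 0.58, Tpm4 by 0.55, Myl12a by 0.48 and Tpm3 by 0.40. Myh10, a non-muscle myosin heavy chain, fell in all 6 treatments, by 0.48 in topotecan/oxaliplatin. Rhoa, which drives the kinase that restrains light chain dephosphorylation, was at -0.01 and not called.

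Of 7 measured genes for serum response factor and its cofactors, 1, 3, 4, 3, 4 and 5 rose in the 6 treatments, in that order, at 24 h and 0 fell, and the single gene for topotecan/D5W is no more than the share of all probe sets gives. Their median for topotecan/oxaliplatin was 0.30. Srf itself rose after D5W/topotecan (0.47), oxaliplatin/NaCl (0.45), NaCl/oxaliplatin (0.33) and oxaliplatin/topotecan (0.37), and its differences after topotecan/D5W (0.27) and topotecan/oxaliplatin (0.30) were not called. Fhl2, a LIM-domain cofactor of this factor, rose in all 6, by 0.81 to 1.94. Of 11 measured genes for TGF-beta ligands, receptors and targets, which drive contractile genes in fibroblasts, 3, 5, 4, 3, 5 and 4 rose and 0, 1, 1, 0, 1 and 1 fell, with a median of 0.47 for topotecan/oxaliplatin. Ccn2 (connective tissue growth factor) rose in all 6, by 1.72 to 3.39, Tgfbr1 rose in all 6 by 0.42 to 0.63, and Tgfb1 itself was called in 0 of 6 (0.13 to 0.49).

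The defining markers of smooth muscle and pericytes were measured for 7 of 16 listed genes. Myh11, Cnn1, Lmod1, Des and Myocd, among others, had no probe set of that single symbol among those tested. Of these 7, 1, 5, 3, 3, 3 and 3 rose at 24 h and 0 fell, with a median of 0.99 for topotecan/oxaliplatin, and the single gene for topotecan/D5W is near the share of all probe sets. The mean over the 7 lay at 7.25 to 7.49 in the vehicle rats of 24 h, 7.47 to 7.66 after topotecan/D5W and 7.88 to 8.49 after topotecan/oxaliplatin. Pdgfrb, a receptor of pericytes and fibroblasts, rose in all 6 treatments, by 0.81 to 1.51. Rgs5, a pericyte gene, rose by 1.90 and Mcam by 1.03 after topotecan/oxaliplatin, and Smtn (smoothelin) was called there alone (0.52). Pln (phospholamban) was called at 1 h in all 6 treatments: it was higher by 2.78 at 1 h after topotecan/D5W and by 2.81 after topotecan/oxaliplatin, and at 24 h it was called in 0 of 6.

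Several lists of markers of other marrow cells moved with the contractile genes at 24 h, beside 16.1% to 25.9% of all probe sets higher. Of 14 measured fibroblast and stroma genes, 9 to 12 rose and 0 to 1 fell, and their mean was 9.78 to 9.95 in the vehicle rats and 10.46 to 11.24 in treated rats. Of 9 endothelial genes, 4 to 8 rose, with a mean of 8.55 to 8.74 in vehicle and 8.82 to 9.96 in treated rats. Of 8 macrophage genes 6 to 8 rose, and of 2 adipocyte genes both in every treatment. Of 7 osteoblast genes 4, 2, 3, 1, 2 and 1 rose in the order of treatments above. The single gene for D5W/topotecan and for oxaliplatin/NaCl is below the share of all probe sets. The counts of 2 for topotecan/oxaliplatin and for oxaliplatin/topotecan are near that share. Of 10 megakaryocyte and platelet genes, 0, 10, 3, 2, 5 and 3 rose in that order. The 0 for topotecan/D5W is again below the share of all probe sets, and the counts for D5W/topotecan and NaCl/oxaliplatin are near it. Their mean was 11.60 to 11.96 in vehicle, 12.50 to 12.93 after topotecan/oxaliplatin and 12.30 to 12.56 after oxaliplatin/topotecan. The lowest single-agent rats lay within the range of both vehicle groups, at 11.83 (topotecan/D5W), 11.95 (NaCl/oxaliplatin) and 11.96 (oxaliplatin/NaCl), or below it, at 11.44 (D5W/topotecan). In the opposite direction, where 17.3% to 35.2% of all probe sets were lower, 8 of 10 erythroid genes fell and 0 to 1 rose in each treatment. Their mean was 12.95 to 13.30 in vehicle and 10.73 to 12.05 in treated rats. Of 6 neutrophil genes 0 to 3 rose and 1 to 3 fell, and of 3 B cell genes 0 to 1 rose and 0 to 1 fell. Lists this short do not set a count of 1 apart from the shares of all probe sets. The part of these cells in the contractile gene values was not tested.

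The 10 genes whose pattern over the 24 group means was most like the mean pattern of the 9, each gene first centred and scaled, were Rab34 (Pearson r = 0.982), Bmp2 (0.981), Tmem47 (0.980), Bmp4 (0.976), Efemp2 (0.976), Tubb2a (0.976), Alox12 (0.975), Cd151 (0.975), Pros1 (0.974) and Lamb1 (0.973). In topotecan/oxaliplatin at 24 h they differed from vehicle by 3.22 for Bmp2 and 3.19 for Bmp4, both bone morphogenetic proteins, by 2.73 for Lamb1, a laminin chain of basement membrane, and by 2.36 for Efemp2, which takes part in building elastic fibres. The other 6 differed by 1.18 (Tubb2a) to 2.19 (Tmem47). These genes were chosen on group means that include both groups of this comparison, so their rise follows from the choice and is not independent evidence.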

How the data were processed

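Per the labels and the study's methods, biotin-labelled RNA was hybridised to Affymetrix GeneChip rat arrays. The deposited values are on the log2 scale, made by the authors with RMA (background correction, quantile normalization, median polish) and then filtered with pvac, a filter for probe sets with probes that vary in common, so genes with weak or inconsistent probes may be missing. From the 12560 deposited probe sets 28 controls were removed and 12532 were tested. Symbols came from GEO's platform annotation: 10002 probe sets have 1, 292 several and 2238 none. Conditions came from the labels.

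Tests were run in R 4.3.3 with lmFit, contrasts.fit and eBayes of limma 3.58.1, checked on simulated data. As in the study's methods, 1 fit held the 4 groups given topotecan or NaCl first and the other fit the remaining 4, each at 3 times, and order was tested in a fit of all groups. Called means Benjamini-Hochberg adjusted p under 0.01 over all probe sets. The shares of all probe sets are shares called in this way. No share was counted at an unadjusted p under 0.05, so counts of the 9 genes at that level have none to be set against. Genes named are the 9, those of fixed marker and pathway lists (each by its probe set of highest mean) and the 10 most alike. The 9 genes and the lists were chosen with earlier results of these data known. Arrays give no read depth; their number limits precision. Alternatives covered the fit, the variance prior, normalization, vehicles, call rule, filter, animal sets, muscle signal, probe set and each rat left out.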

Additional observations from a re-analysis of the deposited data

Results flagged for a closer look

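In groups of 4 rats, 10 of 189 combinations of gene and group (5.29%) held a rat far from the other 3, by a gap above Dixon's critical share of the range of the group, and chance alone gives about 5%. For Tagln these were animal 65 (oxaliplatin/topotecan 24 h, 10.86), animal 82 (NaCl/oxaliplatin 6 h, 9.75) and animal 92 (D5W/topotecan 1 h, 9.29). For Synpo2 they were animal 52 (topotecan/oxaliplatin 6 h, 9.50) and animal 44 (oxaliplatin/NaCl 1 h, 7.03), both high in skeletal muscle genes. For Cald1 they were animal 49 (topotecan/oxaliplatin 1 h, 10.34) and animal 84 (NaCl/oxaliplatin 24 h, 11.79), for Myl9 animal 34 (topotecan/D5W 6 h, 12.22) and animal 55 (topotecan/oxaliplatin 1 h, 11.29), and for Tpm1 animal 38 (oxaliplatin/NaCl 1 h, 11.19).

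Effects against vehicle also differed between times by the test of the difference itself (limma, adjusted p under 0.01). From 1 to 6 h the topotecan/D5W effect grew by 0.55 in Acta2, 0.69 in Actg2, 0.91 in Cald1, 0.86 in Mylk, 3.75 in Tagln and 1.43 in Tpm2. The topotecan/oxaliplatin effect grew by 0.54 in Acta2, 0.78 in Actg2, 1.08 in Cald1, 0.81 in Myl9, 0.93 in Mylk, 4.10 in Tagln and 1.14 in Tpm2. The NaCl/oxaliplatin effect grew by 0.73 in Cald1, 0.81 in Mylk and 3.09 in Tagln, and the Tagln effect grew by 2.22 for D5W/topotecan and 1.72 for oxaliplatin/topotecan. From 6 to 24 h the effect grew by 1.07 in Tpm2 for NaCl/oxaliplatin, by 1.44 in Tpm2 for topotecan/oxaliplatin, and by 0.91 in Cald1, 1.12 in Mylk and 1.54 in Tpm2 for oxaliplatin/topotecan.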

How the results depend on the processing

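No paired analysis was possible because each rat gave 1 array. Counts of the 9 genes called are given here, with the reported count first. One fit of all groups and a trended, robust prior kept every count within 1.5 times. A second quantile normalization, which moved the median of all probe sets from -0.14 to 0.01 for topotecan/oxaliplatin and from -0.13 to 0.02 for oxaliplatin/topotecan at 1 h, gave at 1 h 0 to 1 (D5W/topotecan), 0 to 1 (topotecan/oxaliplatin) and 1 to 2 (oxaliplatin/topotecan), at 6 h 1 to 2 (oxaliplatin/NaCl) and 3 to 5 (oxaliplatin/topotecan), 0 to 1 for oxaliplatin/topotecan against each single agent at 24 h, and 0 to 1 for growth of the oxaliplatin/NaCl effect from 1 to 6 h. Pooled vehicles gave 0 to 1 for D5W/topotecan and topotecan/oxaliplatin at 1 h, and at 6 h 1 to 3 (oxaliplatin/NaCl) and 3 to 6 (oxaliplatin/topotecan). A fold above 2 in addition gave 1 to 0 at 1 h (oxaliplatin/topotecan), at 6 h 7 to 2 (topotecan/D5W), 7 to 1 (D5W/topotecan), 4 to 1 (NaCl/oxaliplatin), 8 to 3 (topotecan/oxaliplatin) and 3 to 1 (oxaliplatin/topotecan), and at 24 h 7 to 2 (topotecan/D5W), 8 to 3 (D5W/topotecan), 9 to 3 (oxaliplatin/NaCl), 8 to 2 (NaCl/oxaliplatin) and 8 to 5 (oxaliplatin/topotecan). Against single agents the fold rule gave, for topotecan/oxaliplatin, 4 to 2 (NaCl/oxaliplatin, 6 h), 6 to 2 (topotecan/D5W, 24 h) and 4 to 0 (NaCl/oxaliplatin, 24 h). Probe sets above the median mean alone, which leaves out Acta2, Actg2 and Synpo2, gave at 6 h 7 to 4 (D5W/topotecan), 8 to 5 (topotecan/oxaliplatin) and 3 to 1 (oxaliplatin/topotecan). The animal set as a term gave 1 to 3 for oxaliplatin/NaCl at 6 h. The first animal set alone (fewer rats, lone rats assumed to vary like the rest) gave 1 to 0 for oxaliplatin/topotecan at 1 h, 7 to 4 (topotecan/D5W), 4 to 1 (NaCl/oxaliplatin) and 3 to 1 (oxaliplatin/topotecan) at 6 h, and 8 to 3 for D5W/topotecan at 24 h. The second set gave 4 to 2 for NaCl/oxaliplatin at 6 h, and 7 to 3 (topotecan/D5W) and 9 to 3 (oxaliplatin/NaCl) at 24 h. Without the 3 arrays highest in muscle genes, or without 6 (chosen after seeing the data), oxaliplatin/NaCl at 24 h gave 9 to 4, and with muscle signal as a covariate 9 to 5. Without the 3, departure from the sum for oxaliplatin/topotecan gave 3 to 1 (6 h) and 3 to 0 (24 h), the 6 h values themselves unchanged, and growth of the D5W/topotecan effect from 1 to 6 h 1 to 2. For Tpm1 after NaCl/oxaliplatin at 24 h, the probe set of mean signal 9.25 gave -0.04. Leaving out each rat gave 0 to 1 at 1 h for D5W/topotecan (1 without animal 86 or 91) and for oxaliplatin/topotecan, 4 to 7 for topotecan/D5W at 24 h, 0 to 6 for topotecan/oxaliplatin against NaCl/oxaliplatin at 24 h, and counts within 1.5 times otherwise. Of 705 gene results with a rat left out, 44 lost their call and 0 reversed. The cause of these shifts was not tested, except that fewer rats or probe sets were used where stated. Groups of 3 or 4 rats limit what differences can be called.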
